A study of Sus scrofa with 15 samples.

Results

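The comparison described here set the knockdown vector labelled Lv143KD against the control vector labelled Lv3NC in IPEC-J2 cells, an intestinal epithelial line of the pig, with 3 libraries in each group. Its members were the 3 Lv143KD and 3 Lv3NC columns of the knockdown expression table, 6 of the 15 libraries of the series. The study put lentiviral vectors for knocking down or overexpressing microRNAs into this cell line and sequenced total RNA. The remaining 9 libraries were 3 of a second knockdown vector, Lv133KD, 3 of a miR-143 overexpression vector, OV143, and 3 of its own control, Lv20NC. The sample labels tie Lv143KD to miR-143 by name, whereas the series' design text gives its target as miR-133, so the target of the vector is not settled by the labels, and the name Lv143KD is used as a label only. The sources used here do not state what the vectors carry, which promoter they use, when cells were harvested or whether transduced cells were selected. Every library came from 1 cell line. Whether libraries of 1 group were separate cultures is not stated, so the p-values reflect a spread between samples that may be only technical.

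MicroRNAs are short RNAs that are cut out of hairpin precursors, loaded into Argonaute proteins and guided by base pairing to messenger RNAs, whose translation and stability they lower. An inhibitor of a microRNA is used in the expectation that the messages it holds down will become more abundant. In mammals miR-143 is known best from smooth muscle and connective tissue, where it is made together with miR-145, and miR-133 from skeletal and heart muscle. IPEC-J2 is a non-transformed line from the small intestine of a newborn piglet and is used as a model of the absorptive epithelium.

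The deposited values are fragment counts scaled for transcript length and library size (FPKM). The table listed 19000 genes, of which 11530 had at least 1 FPKM in at least 3 of the 6 libraries and were tested. Just inside that threshold, 155 genes reached 1 FPKM in exactly 3 libraries, with a median mean level of 1.03 FPKM, and just outside it 186 genes reached it in exactly 2, with a median of 0.905 FPKM. FPKM does not keep the read total, so the depth of each library is unknown. The sums of FPKM lay between 488766 and 520630, and 11250 to 11546 genes reached 1 FPKM. No pair of libraries held identical values. The leading principal component of the 6 libraries took 66.9% of the variance and followed the replicate number rather than the vector. On it, the number 2 libraries lay at -23.5 for Lv143KD and -22.6 for Lv3NC, and the number 3 libraries at 24.3 for Lv143KD and 28.4 for Lv3NC. The number 1 libraries lay between these, less close together, at -8.43 for Lv143KD and 1.81 for Lv3NC. The third component, with 6.38% of the variance, separated the vectors. On that component Lv143KD libraries lay between -7.29 and -5.45, and Lv3NC libraries between 4.91 and 7.94. Same-numbered libraries deviated from their group means together, with correlations across genes of 0.52, 0.85 and 0.85 for numbers 1, 2 and 3. Results of called genes are therefore given without and with the replicate number as a block in the fit. Some genes that did not pass are given with the block only. A ± value marked SE is from the fit without the block, also where it stands beside an adjusted p with the block. No microRNA gene had a row in the table, so the level of the targeted microRNA was not measured here.

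Few genes passed the test between Lv143KD and Lv3NC cells. Without the block, limma called 2 of 11530 genes at an adjusted p under 0.05, which is 0.0173%, and both were higher in Lv143KD cells: ATP6V1H, a subunit of the proton pump that acidifies lysosomes, and FOPNL, a centrosome and cilium protein. With the replicate block, 20 genes were called, which is 0.173%, namely 18 higher (0.156%) and 2 lower (0.0173%) in Lv143KD cells. The 20 included both genes called without the block. Their fold changes on the log2(FPKM + 1) scale, which understates the change of low genes, lay between 1.39-fold and 2.73-fold for the genes that rose. At an unadjusted p under 0.05 there were 207 genes (1.8%) without and 664 genes (5.76%) with the block. The 3 Lv143KD and 3 Lv3NC libraries did not overlap for 19 of the 20 called genes, against 479 of all genes tested (4.15%), of which 243 (2.11%) were higher and 236 (2.05%) lower in Lv143KD cells. Over all genes tested the median log2 fold change was -0.01. Without any single one of the 6 libraries the fit without the block called 0 genes, with 148 to 329 at an unadjusted p under 0.05. With the block, leaving out replicate number 1 of every group left 2 calls, number 2 left 3 and number 3 left 60, and 1, 3 and 20 of the 20 genes were called again in those fits.

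**Figure D1:**
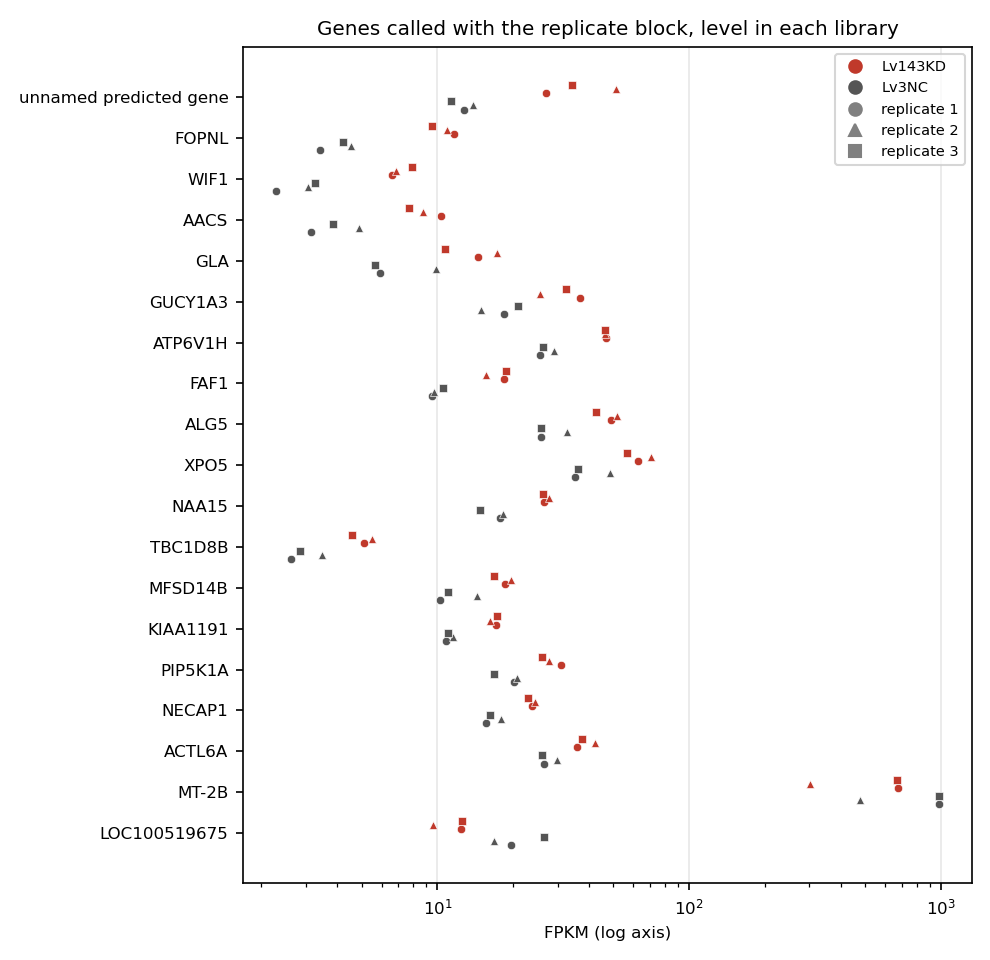
Levels of 19 of the 20 genes called with the replicate block, in FPKM on a log axis, with 1 point per library, red for Lv143KD and grey for Lv3NC, and the replicate number by the shape of the point. In all rows but MT-2B the red and grey points do not overlap, and in MT-2B the number 2 library is the lowest of both groups.

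Of the called genes, ATP6V1H and GLA are lysosomal, and NECAP1, PIP5K1A and TBC1D8B are placed beside them by their known roles after they were called. They form no list that was tested. ATP6V1H, the H subunit of the cytosolic sector of the vacuolar proton pump, had 46.6, 46.3 and 46.3 FPKM in Lv143KD cells, against 25.5, 28.9 and 26.3 FPKM in Lv3NC cells. Every Lv143KD library lay above every Lv3NC library, and the 3 Lv143KD values were nearly equal. The log2 fold change was 0.77 ± 0.08 (SE), with an adjusted p of 0.0335 without and 0.00523 with the block. GLA, the lysosomal alpha-galactosidase that trims glycolipids, had 14.4, 17.2 and 10.8 FPKM in Lv143KD cells, against 5.91, 9.87 and 5.67 FPKM in Lv3NC cells. These groups did not overlap, but the lowest Lv143KD library and the highest Lv3NC library were close. GLA rose by 0.91 ± 0.21 (SE) on the log2 scale, with an adjusted p of 0.0306 with and 0.795 without the block. NECAP1, which binds the adaptor AP-2 at clathrin-coated pits, had 23.8, 24.4 and 22.9 FPKM in Lv143KD cells, against 15.6, 17.8 and 16.2 FPKM in Lv3NC cells, a log2 fold change of 0.50 ± 0.09 (SE) with an adjusted p of 0.0401 with the block. PIP5K1A, a kinase that makes the phosphoinositide PI(4,5)P2 at the plasma membrane, had 31.0, 27.7 and 26.0 FPKM in Lv143KD cells, against 20.1, 20.6 and 16.7 FPKM in Lv3NC cells. PIP5K1A rose by 0.54 ± 0.11 (SE), with an adjusted p of 0.0401 with the block, and its groups did not overlap. TBC1D8B, which carries the TBC domain of proteins that act on RAB GTPases, had the lowest Lv143KD level of the called genes, at 5.12, 5.52 and 4.58 FPKM in Lv143KD cells, against 2.63, 3.49 and 2.84 FPKM in Lv3NC cells, and rose by 0.61 ± 0.12 (SE), with an adjusted p of 0.0369 with the block. In the fit without the block the adjusted p was 0.289 for NECAP1, 0.590 for PIP5K1A and 0.491 for TBC1D8B.

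No other member of the lists these genes belong to was called. Of 19 tested subunits of the vacuolar proton pump, ATP6V1H was the only one called, 6 had a log2 fold change above 0 and 13 below 0, and the median was -0.05. The membrane-sector subunit ATP6V0C had 212 ± 5.47 FPKM in Lv143KD cells and 181 ± 21.4 FPKM in Lv3NC cells (SD, n = 3 each), a log2 fold change of 0.24 that did not pass (adjusted p = 1.00 without and 0.817 with the block). ATP6V0B had a log2 fold change of -0.24 and ATP6V1G1 of -0.18, and neither passed. Of 37 lysosomal enzymes and membrane proteins, GLA alone was called, 10 lay above 0 and 27 below 0, and the median was -0.11. In this list the largest differences by unadjusted p after GLA were in the other direction. The membrane glycoprotein LAMP1 had 115 ± 5.08 FPKM in Lv143KD cells and 136 ± 6.77 FPKM in Lv3NC cells, the peptidase TPP1 had 57.2 ± 1.31 FPKM in Lv143KD cells and 68.9 ± 4.57 FPKM in Lv3NC cells, and the protective protein CTSA had 69.5 ± 4.42 FPKM in Lv143KD cells and 83.2 ± 4.25 FPKM in Lv3NC cells (SD, n = 3 each). Their groups did not overlap, yet none of them passed the adjustment (adjusted p = 0.626 with the block for each). Among 34 clathrin adaptors and endosomal sorting genes, a list without NECAP1, 17 lay above and 17 below 0 and none was called. The adaptor subunits AP1M1, AP1S2 and AP2B1 had log2 fold changes of 0.78, 0.53 and 0.42 with adjusted p-values of 0.118, 0.0690 and 0.0917 with the block.

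FOPNL had the largest log2 fold change of the genes with an assigned symbol that rose. Its levels were 11.7, 10.9 and 9.51 FPKM in Lv143KD cells, against 3.42, 4.55 and 4.22 FPKM in Lv3NC cells, with no overlap. The log2 fold change was 1.21 ± 0.13 (SE), with an adjusted p of 0.0335 without and 0.00813 with the block. Of 27 centrosome and centriole genes it was the only one called, and the list's median was -0.02. The centriole protein CETN2 had 30.4 ± 4.8 FPKM in Lv143KD cells and 22.4 ± 3.15 FPKM in Lv3NC cells (SD, n = 3 each), with overlapping groups, and did not pass (adjusted p = 0.485 with the block).

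WIF1, a secreted protein that binds WNT ligands and blocks their signal, had 6.58, 6.86 and 7.91 FPKM in Lv143KD cells, against 2.29, 3.07 and 3.26 FPKM in Lv3NC cells. The groups did not overlap, and WIF1 rose by 1.07 ± 0.14 (SE) on the log2 scale, with an adjusted p of 0.00523 with and 0.109 without the block. Of 20 tested WNT inhibitors, receptors and targets, 14 lay above 0 and 6 below 0 with a median of 0.04, and only WIF1 was called. AXIN2, a target of the pathway and brake on it, had 1.11 ± 0.0252 FPKM in Lv143KD cells and 0.967 ± 0.315 FPKM in Lv3NC cells (SD, n = 3 each) and did not pass (adjusted p = 1.00 with the block).

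Single enzymes and receptors of other pathways rose as well. AACS, which activates acetoacetate in the cytosol for lipid synthesis, had 10.3, 8.73 and 7.74 FPKM in Lv143KD cells, against 3.15, 4.88 and 3.85 FPKM in Lv3NC cells. AACS rose by 1.01 ± 0.15 (SE) with an adjusted p of 0.0306 with and 0.176 without the block, and its groups did not overlap. In the list of 21 genes of fatty acid synthesis and acetoacetate use it was the only call, with 12 above 0, 9 below 0 and a median of 0.03. ALG5, which makes the dolichol-linked glucose donor for N-glycan precursors, had 48.8, 51.6 and 42.5 FPKM in Lv143KD cells, against 25.8, 32.8 and 25.8 FPKM in Lv3NC cells. ALG5 rose by 0.74 ± 0.12 (SE), with an adjusted p of 0.00813 with and 0.228 without the block. Of 32 N-glycan assembly genes it alone was called, and 10 lay above 0 and 22 below 0 with a median of -0.03. GUCY1A3, the alpha subunit of the soluble guanylate cyclase that senses nitric oxide, had 36.9, 25.4 and 32.4 FPKM in Lv143KD cells, against 18.3, 14.9 and 20.9 FPKM in Lv3NC cells. The number 2 library was the lowest of both groups, the groups did not overlap, and GUCY1A3 rose by 0.77, with SEs of 0.22 without and 0.10 with the block (adjusted p = 1.00 without and 0.0306 with the block). Of the 8 tested genes of nitric oxide and cyclic GMP signalling it was the only call.

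XPO5, the nuclear export receptor for microRNA precursors, was higher in Lv143KD cells, at 62.7, 70.4 and 56.6 FPKM, against 35.3, 48.6 and 36.3 FPKM in Lv3NC cells. The groups did not overlap, and XPO5 rose by 0.65, with SEs of 0.14 without and 0.08 with the block (adjusted p = 0.643 without and 0.0277 with the block). Of 17 genes of microRNA processing, 12 lay above 0 and 5 below 0 with a median of 0.02, and XPO5 was the only one called. AGO4, an Argonaute protein, had 4.26 ± 0.208 FPKM in Lv143KD cells and 2.93 ± 0.15 FPKM in Lv3NC cells (SD, n = 3 each) with no overlap, a log2 fold change of 0.42 that did not pass (adjusted p = 0.136 with the block). AGO2, the Argonaute that can cut its targets, had 13.9 ± 1.18 FPKM in Lv143KD cells and 12.3 ± 2.65 FPKM in Lv3NC cells, with overlapping groups.

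FAF1 belongs to a list of 24 genes of apoptosis through FAS and TNF receptors, whose median was 0.01 with 12 above and 12 below 0. FAF1, which binds the FAS receptor and ubiquitylated proteins, had 18.4, 15.6 and 18.7 FPKM in Lv143KD cells, against 9.47, 9.69 and 10.5 FPKM in Lv3NC cells. FAF1 rose by 0.77 ± 0.11 (SE), with an adjusted p of 0.00817 with and 0.176 without the block. The groups did not overlap. MCL1, an inhibitor of apoptosis, had 294.7, 271 and 343 FPKM in Lv143KD cells, against 266, 268 and 266 FPKM in Lv3NC cells, without overlap, but did not pass (adjusted p = 0.895 with the block).

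The remaining genes that rose include genes of protein modification, chromatin and transport, and also KIAA1191 and a predicted gene, which are not placed by role. NAA15, which anchors the N-terminal acetyltransferase NatA to the ribosome, had 26.4, 27.6 and 26.1 FPKM in Lv143KD cells, against 17.7, 18.3 and 14.8 FPKM in Lv3NC cells, a log2 fold change of 0.63 ± 0.11 (SE) with an adjusted p of 0.0360 with the block. Of 11 genes of N-terminal acetylation it was the only call, and NAA10, the catalytic partner of NAA15, had 50.9 ± 9.47 FPKM in Lv143KD cells and 47.0 ± 12.7 FPKM in Lv3NC cells (SD, n = 3 each). ACTL6A, an actin-like subunit of SWI/SNF chromatin remodellers, had 35.7, 42.2 and 37.6 FPKM in Lv143KD cells, against 26.4, 29.8 and 26.0 FPKM in Lv3NC cells, and rose by 0.48 ± 0.11 (SE) with an adjusted p of 0.0376 with the block. KIAA1191 rose by 0.55 ± 0.09 (SE), with 16.8 ± 0.574 FPKM in Lv143KD cells and 11.13 ± 0.375 FPKM in Lv3NC cells. MFSD14B, a member of the major facilitator family of membrane transporters, rose by 0.59 ± 0.13 (SE), with 18.3 ± 1.45 FPKM in Lv143KD cells and 11.9 ± 2.15 FPKM in Lv3NC cells (SD, n = 3 each). Their adjusted p-values with the block were 0.0360 and 0.0406. In the fit without the block the adjusted p was 0.287 for NAA15, 0.735 for ACTL6A, 0.197 for KIAA1191 and 0.735 for MFSD14B. A predicted gene with no symbol, listed as BGI_novel_G000385, showed the largest log2 fold change of the 20, with 26.9, 51.3 and 34.2 FPKM in Lv143KD cells, against 12.8, 13.8 and 11.3 FPKM in Lv3NC cells. It rose by 1.45 ± 0.23 (SE), with an adjusted p of 0.00523 with and 0.197 without the block, and it was the 1 gene called again in each block fit that left out a replicate number.

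No source used here states whether counting used strand, so reads of a gene and of a gene that overlaps it cannot be told apart. In the annotation FAF1, XPO5, NAA15, TBC1D8B, ACTL6A and NECAP1 each overlap another gene. Overlap was taken from the start and end of each gene, introns included, and shared exons were not looked for. XPO5, on chromosome 7 from 38530704 to 38569558 in the pig build Sscrofa11.1, overlaps POLH and POLR1C. ACTL6A, on chromosome 13 from 117598415 to 117627311, overlaps MRPL47. ATP6V1H on chromosome 4 (77211493 to 77269757), FOPNL on chromosome 3 (6977195 to 6996024) and WIF1 on chromosome 5 (29450442 to 29543913) overlap no other annotated gene.

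With the block 2 genes fell, and without it limma gave 0 lower calls among the 207 genes at an unadjusted p under 0.05. MT-2B, a metallothionein that binds zinc and copper, had 673, 302 and 668 FPKM in Lv143KD cells, against 978, 477 and 979.9 FPKM in Lv3NC cells. The number 2 library was the lowest of both groups, the groups overlapped, and MT-2B was lower in Lv143KD cells in 3 of 3 same-numbered pairs. The log2 fold change was -0.58, with SEs of 0.44 without and 0.08 with the block (adjusted p = 1.00 without and 0.0336 with the block). The call was lost with the block after median centring (adjusted p = 0.0614) and without the level filter (adjusted p = 0.161). Without the number 2 Lv143KD library the log2 fold change in the fit without the block was -0.20, and without the number 2 Lv3NC library it was -0.93. Of 15 metallothionein and zinc-handling genes it was the only call, and the related MT1A had 51.5 ± 10.6 FPKM in Lv143KD cells and 62.1 ± 8.98 FPKM in Lv3NC cells (SD, n = 3 each) and did not pass (adjusted p = 0.723 with the block). Metallothionein genes are near-copies of each other, and their reads may have been shared between them. LOC100519675, on chromosome 9, had 12.4, 9.63 and 12.5 FPKM in Lv143KD cells, against 19.5, 16.8 and 26.5 FPKM in Lv3NC cells, without overlap. It fell by 0.80 ± 0.16 (SE) on the log2 scale, with an adjusted p of 0.0360 with and 0.590 without the block.

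Groups were separated, with a mean of at least 5 FPKM in a group, for 170 genes that were higher and 183 that were lower in Lv143KD cells. Of the 10 with the largest log2 fold changes each way, 9 of the higher and 1 of the lower passed with the block, so those named next are mostly lower by this choice. SLPI, a secreted protease inhibitor of mucosal surfaces, had 32.6, 36.7 and 25.3 FPKM in Lv143KD cells, against 52.2, 45.1 and 45.1 FPKM in Lv3NC cells, a log2 fold change of -0.59 with an adjusted p of 0.0705 with the block. CFD, the complement factor D protease, had 7.88, 6.06 and 9.76 FPKM in Lv143KD cells, against 10.3, 10.8 and 16.0 FPKM in Lv3NC cells. ZFP36, which directs the decay of cytokine messages, had 32.3, 22.4 and 32.5 FPKM in Lv143KD cells, against 38.5, 36.9 and 56.0 FPKM in Lv3NC cells. Their log2 fold changes were -0.58 and -0.57, with adjusted p-values of 0.571 and 0.484 with the block. The kinase PIM1, the dynein assembly factor ZMYND10, CCDC28A, the transglutaminase TGM2 and the surface protein LY6D had log2 fold changes of -0.42, -0.40, -0.39, -0.35 and -0.34, with adjusted p-values of 0.247 to 0.701 with the block. In the other direction NRGN, a calmodulin-binding protein best known from neurons, had 11.12, 7.82 and 9.40 FPKM in Lv143KD cells, against 4.54, 5.57 and 6.32 FPKM in Lv3NC cells, a log2 fold change of 0.69 with an adjusted p of 0.201 with the block.

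The levels of the called genes in the other groups show where Lv143KD and Lv3NC stand in the series. Lv133KD shares its control with Lv143KD, so its own level is given and no agreement between the 2 contrasts is read. ATP6V1H had 46.4 ± 0.182 FPKM in Lv143KD, 46.2 ± 0.802 FPKM in Lv133KD and 26.9 ± 1.78 FPKM in Lv3NC cells (SD, n = 3 each). FOPNL had 10.7 ± 1.08 FPKM in Lv143KD, 10.7 ± 1.12 FPKM in Lv133KD and 4.06 ± 0.581 FPKM in Lv3NC cells. For all 18 genes that rose, the 3 Lv3NC libraries lay below the 3 Lv133KD libraries. These genes were called on their difference from Lv3NC in a fit that held the Lv133KD libraries. The share of all genes tested with this order was not counted, so nothing is read from it. Tested directly, Lv143KD and Lv133KD cells had 0 of 11530 genes called by limma, without and with the block, with 14 and 205 genes at an unadjusted p under 0.05. For the 18 genes that rose, Lv143KD minus Lv133KD was between -0.20 and 0.38 on the log2 scale. The smallest unadjusted p among them was 0.126 without the block, for BGI_novel_G000385, and 0.0143 with the block for the same gene (adjusted p = 0.908), the 1 gene of the 18 under 0.05 with the block. LOC100519675 had 11.5 ± 1.63 FPKM in Lv143KD, 14.3 ± 0.399 FPKM in Lv133KD and 20.9 ± 5.01 FPKM in Lv3NC cells.

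OV143 and Lv20NC come from a table that was normalised separately, so levels set across the tables carry that limit. In OV143 and Lv20NC cells ATP6V1H had 40.2 ± 0.333 FPKM and 41.2 ± 0.936 FPKM, FOPNL had 9.77 ± 0.544 FPKM and 10.3 ± 0.312 FPKM, and AACS had 9.46 ± 0.193 FPKM and 9.25 ± 0.591 FPKM (SD, n = 3 each). These levels lay near those of Lv143KD cells and above those of Lv3NC cells. Of the 18 genes that rose, 17 were in both tables, and Lv3NC had the lowest mean of the 5 groups for all 17. For 16 of them every Lv3NC library lay below the 12 other libraries of the series, against 88 of the 11372 genes tested that are in both tables (0.774%). The genes were called on their difference from Lv3NC, so a low Lv3NC level relative to Lv143KD is built into them. The share over all genes is therefore not a like base for them. The other 9 libraries include those of Lv133KD, which were in the same fit. The 6 that the fit of this contrast did not use come from the separately normalised table. The differences may belong to the Lv3NC vector, to its cultures, to its libraries or to a rise with the knockdown vectors. These cannot be told apart in this design, and none of them was tested.

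**Figure D2:**
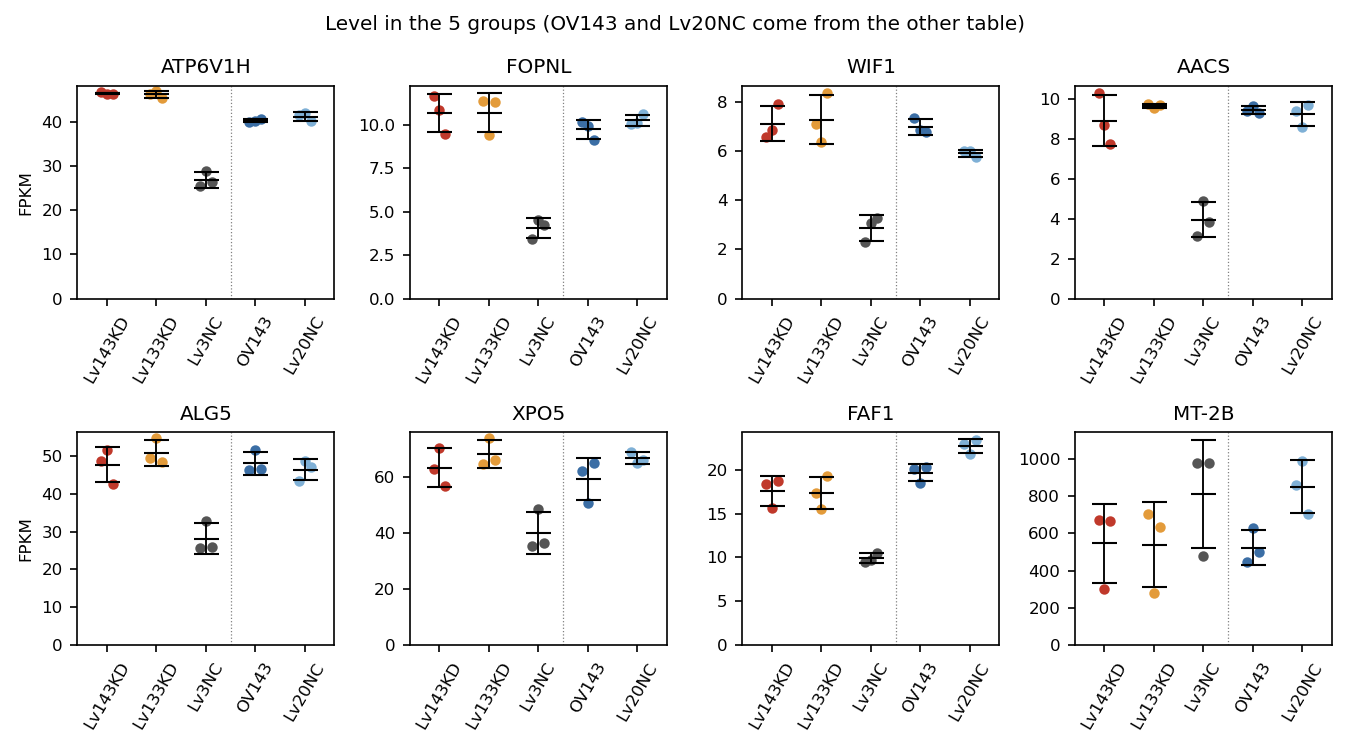
Levels in FPKM of 8 of the called genes in the 5 groups, with 1 point per library, the mean as the middle line and the SD as the bars (n = 3 each). The dotted line separates the knockdown table from the separately normalised overexpression table. In every panel but MT-2B the 3 Lv3NC libraries lie below the other 12 libraries shown.

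The same genes were read in cells overexpressing miR-143. Of the 19 called genes tested in OV143 against Lv20NC, 1 was called with the block, where 223 of 11506 genes were called (1.94%), 74 higher (0.643%) and 149 lower (1.29%), and none without it, where 0 genes were called by limma and 1304 had an unadjusted p under 0.05. The 1 gene was MT-2B, with 524 ± 94.5 FPKM in OV143 cells and 849.6 ± 142.5 FPKM in Lv20NC cells (SD, n = 3 each), a log2 fold change of -0.70 with an adjusted p of 0.0209 with and 0.240 without the block. Of the 17 genes that rose in Lv143KD cells and were tested in the other table, 12 lay below 0 and 5 above 0 in OV143 cells. Their log2 fold changes lay between -0.32 and 0.21, and the median over all genes tested in both tables was -0.02. Of these 17 genes, 1 had an unadjusted p under 0.05 in the limma fit without the block, and none was called. The share of all genes below 0 was not counted, so no direction is read from these genes.

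No literature target of miR-143 was called between the vectors. Of 24 such genes listed, 22 were tested, 13 lay above 0 and 9 below 0, and none was called (smallest adjusted p = 1.00 without and 0.966 with the block). Their median log2 fold change was 0.03, against -0.01 over all genes tested, and JAG1, a ligand of Notch receptors, had the highest log2 fold change, 0.25. The glycolytic enzyme HK2 had 36.6, 39.8 and 24.4 FPKM in Lv143KD cells, against 30.1, 42.3 and 19.0 FPKM in Lv3NC cells, and the kinase MAPK7 had 29.4, 30.3 and 19.6 FPKM in Lv143KD cells, against 25.7, 37.0 and 15.8 FPKM in Lv3NC cells. The groups overlapped for both genes and for 21 of the 22 targets in all. The exception was the kinase MAP3K7, with 21.6, 21.6 and 20.9 FPKM in Lv143KD cells, against 22.4, 22.3 and 22.1 FPKM in Lv3NC cells, a log2 fold change of -0.06. The actin-bundling protein FSCN1 had 34.2 ± 4.18 FPKM in Lv143KD cells and 31.8 ± 4.97 FPKM in Lv3NC cells, and the receptor ERBB3 had 21.0 ± 1.46 FPKM in Lv143KD cells and 23.7 ± 3.15 FPKM in Lv3NC cells (SD, n = 3 each). The targets ADD3, AKT1, BCL2, CD44, DNMT3A, ELK1, FNDC3B, IGF1R, LIMK1, MACC1, MDM2, MYO6, PRKCE and PTGS2, had log2 fold changes between those of ERBB3 (-0.16) and JAG1. IGFBP5 and TLR2 were below the level filter. In the overexpression table, 18 of the 22 lay below 0 and 4 above 0 in OV143 cells with a median of -0.15, against a median of -0.02 over all genes tested. The prostaglandin synthase PTGS2 was called lower there with the block, at -1.16 (adjusted p = 0.0130 with and 0.211 without the block). Of all 11506 genes tested in that table, 149 (1.29%) were called lower with the block, and 0 genes were called without it. In Lv143KD cells PTGS2 had 33.4, 11.9 and 35.9 FPKM, against 34.4, 13.5 and 24.5 FPKM in Lv3NC cells. The number 2 library was the lowest of both groups.

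**Figure D3:**
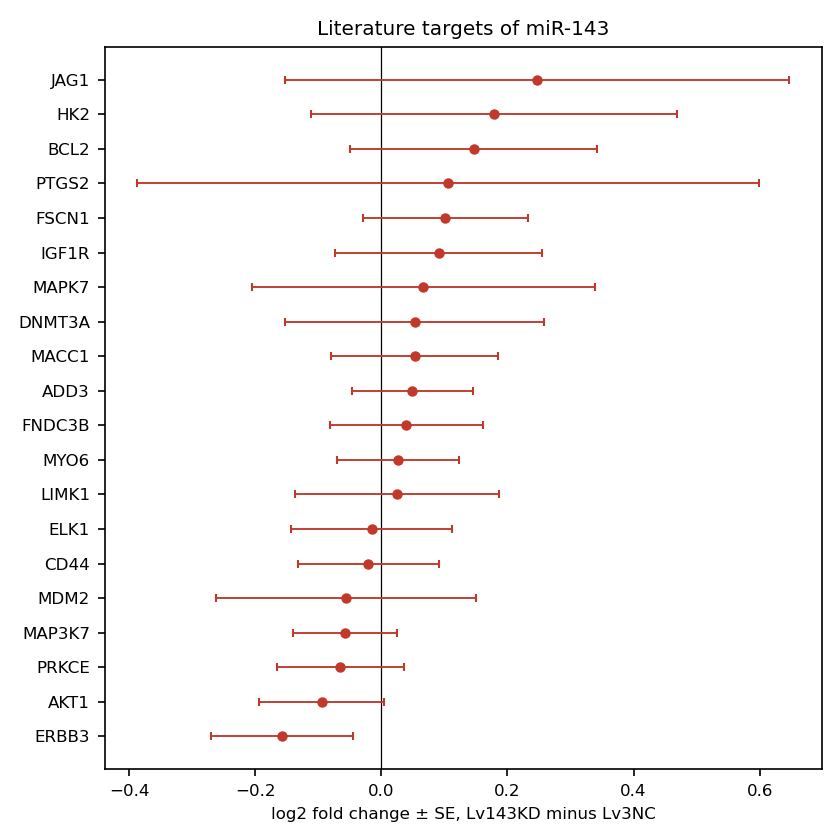
Log2 fold change of 20 of the 22 tested literature targets of miR-143, Lv143KD minus Lv3NC, with the standard error of the fit without the block as bars and a line at 0. The points lie between -0.16 and 0.25, and every bar but that of ERBB3 crosses 0.

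Literature targets of miR-133 were read in the same way, since the design text names that microRNA. Of 24 tested, 9 lay above 0 and 15 below 0, the median was -0.03 and none was called (smallest adjusted p = 0.895 with the block, for MCL1, which is in this list too). The GTPase CDC42 had 154 ± 8.46 FPKM in Lv143KD cells and 164 ± 5.98 FPKM in Lv3NC cells, and ARPC5, a subunit of the actin-nucleating ARP2/3 complex, had 76.9 ± 5.25 FPKM in Lv143KD cells and 82.0 ± 2.35 FPKM in Lv3NC cells (SD, n = 3 each), with overlapping groups. In OV143 against Lv20NC cells, 18 of these 24 genes likewise lay below 0, with a median of -0.09. SNAI1 and CTGF of this list were called lower there with the block, at -0.96 and -0.77 (adjusted p = 0.00582 and 0.0277). Neither was called without the block (adjusted p = 0.0819 and 0.276).

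The 24 lists with at least 5 tested and no called member had medians between -0.21 and 0.08, and for 23 of them the medians of the 3 same-numbered pairs lay on both sides of 0. Of 28 genes of the ATF4 response to amino acid shortage, 1 lay above 0 and 27 below 0, none was called, and the median was -0.21. That median was -0.33 and -0.41 for the pairs of number 1 and number 2 libraries and 0.10 for number 3, and leaving out single libraries moved it between -0.57 and 0.20. In this list the stress-induced gene DDIT4 had 186, 79.1 and 191 FPKM in Lv143KD cells, against 209, 180.3 and 187 FPKM in Lv3NC cells, and the amino acid transporter subunit SLC3A2 had 127, 44.1 and 140.5 FPKM in Lv143KD cells, against 149, 76.0 and 139 FPKM in Lv3NC cells. The low value of the number 2 Lv143KD library stood out in both genes, and the groups overlapped. Of 24 p53 targets, 2 lay above 0 and 22 below 0 with a median of -0.10. The DNA damage gene GADD45A had 567, 289 and 566 FPKM in Lv143KD cells, against 704, 473 and 582 FPKM in Lv3NC cells, with an adjusted p of 0.666 with the block. Of 72 cytosolic ribosomal protein genes, 3 lay above 0 and 69 below 0 with a median of -0.08, and RPS3 had 1329 ± 46.7 FPKM in Lv143KD cells and 1504 ± 197 FPKM in Lv3NC cells (SD, n = 3 each). Of 32 interferon-stimulated genes, 24 lay above 0 and 8 below 0 with a median of 0.08, which was 0.23 for the number 1 pair, -0.02 for number 2 and -0.07 for number 3. The viral RNA sensor DDX58 had 5.72, 4.13 and 4.89 FPKM in Lv143KD cells, against 4.90, 2.90 and 4.47 FPKM in Lv3NC cells, with overlapping groups. Over all genes tested 5084 lay above 0 and 6446 below 0, and genes of one list vary together, so these counts carry no test.

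**Figure D4:**
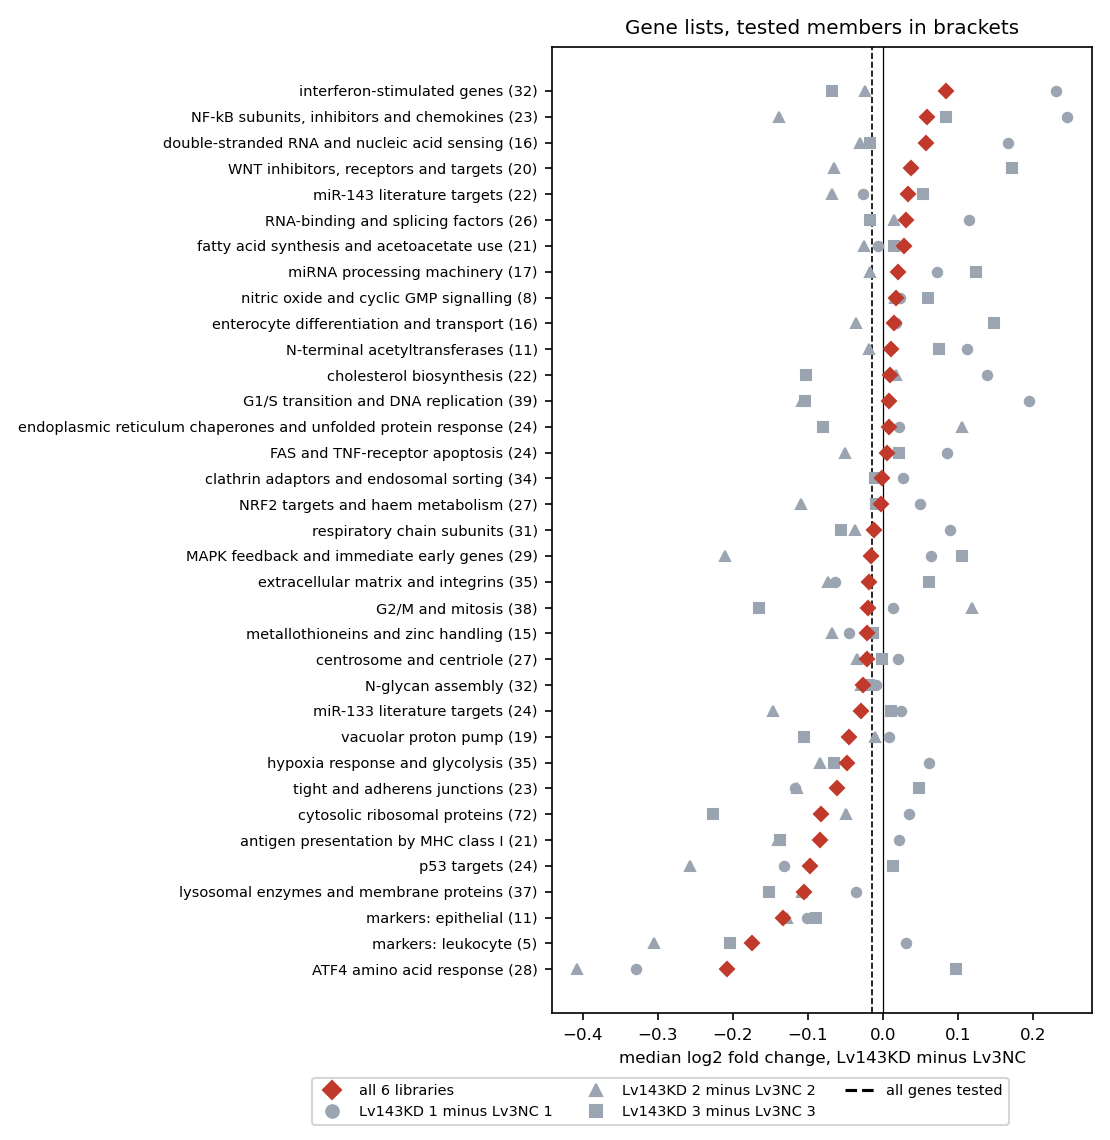
Median log2 fold change of the tested members of each gene list with at least 5, Lv143KD minus Lv3NC, in red for all 6 libraries and in grey for the 3 same-numbered pairs. The dashed line is the median of all genes tested. The red points lie between -0.21 for the ATF4 list and 0.08 for interferon-stimulated genes, and for 30 of the 35 lists the grey points fall on both sides of 0.

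Markers of epithelial cells were expressed, and some listed markers of other cell types were too. All 11 epithelial markers were above 1 FPKM in at least 1 library, with sums of 1780 to 2526 FPKM in Lv143KD cells and 1935 to 2956 FPKM in Lv3NC cells. The adhesion molecule EPCAM had 283, 282 and 311 FPKM in Lv143KD cells, against 331, 291 and 359 FPKM in Lv3NC cells, while the brush-border protein VIL1 had 2.65, 1.81 and 0.98 FPKM in Lv143KD cells, against 2.34, 1.45 and 1.47 FPKM in Lv3NC cells. Of 11 leukocyte markers 5 reached 1 FPKM in any library, and PTPRC and CD163 were listed at 0 in all 6. AIF1, a calcium-binding protein of macrophages, was lower in the Lv143KD libraries without overlap, at 10.3, 7.94 and 8.20 FPKM, against 12.8, 10.99 and 13.7 FPKM in Lv3NC cells, and did not pass (adjusted p = 0.294 with the block). The leukocyte markers summed to 58.6 to 76.3 FPKM in Lv143KD cells and 72.4 to 89.8 FPKM in Lv3NC cells, mostly from LAPTM5. Of 12 fibroblast and muscle markers 4 reached 1 FPKM, and VIM and TAGLN made up most of sums of 1211 to 1580 FPKM in Lv143KD cells and 1346 to 1746 FPKM in Lv3NC cells. The 7 endothelial markers summed to 11.2 to 13.96 FPKM in Lv143KD cells and 11.8 to 13.4 FPKM in Lv3NC cells, mostly from the endothelial cadherin CDH5, which had 9.08, 9.0 and 9.85 FPKM in Lv143KD cells, against 8.43, 10.8 and 9.14 FPKM in Lv3NC cells. That is above the epithelial claudin CLDN3, at 5.25, 6.18 and 4.0 FPKM in Lv143KD cells, against 5.89, 8.19 and 5.23 FPKM in Lv3NC cells. CLDN3 was among the lower members of the epithelial list, with VIL1 below it. The claudin CLDN4 had 387 ± 104 FPKM in Lv143KD cells and 522 ± 221 FPKM in Lv3NC cells (SD, n = 3 each). The keratin KRT18 had 130 ± 15.6 FPKM in Lv143KD cells and 154 ± 31.0 FPKM in Lv3NC cells. The ranges of all 4 sums overlapped between the groups. Within same-numbered pairs the epithelial, leukocyte and fibroblast and muscle sums were lower in Lv143KD cells in 3 of 3 pairs, and the endothelial sum in 1 of 3. The leukocyte sums were 67.1, 58.6 and 76.3 FPKM in Lv143KD cells, against 75.9, 72.4 and 89.8 FPKM in Lv3NC cells. In bulk RNA fewer cells of a kind and less RNA per cell cannot be told apart, and the part of such shifts in the results was not tested.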

How the data were processed

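The authors deposited FPKM values per gene, per the file headers, for 9 libraries of the knockdown vectors and their control in a table of their own and for 6 of the overexpression vector and its control in another. According to the submitters' processing notes the genome build was Sscrofa11.1. Aligner, counting tool and annotation are not given. The members, gene lists and tests were chosen with earlier results of these data known. RefSeq's gene table for that build gave symbols for 18618 of 19000 genes. List members were matched by exact symbol, and 0 mitochondrially encoded genes were found. Values were tested as log2(FPKM + 1) with limma 3.58.1 in R 4.3.3 (trended empirical Bayes, two-sided, Benjamini-Hochberg over all genes tested), fitted to the 9 libraries with the level filter over the 6. An adjusted p under 0.05 made a call. The median standard error was 0.14 without and 0.10 with the replicate block. Replicate numbers were taken to pair samples because every same-numbered correlation of deviations was over 0.1. Of the different-numbered pairs, Lv143KD 1 with Lv3NC 2 was over this limit too, at 0.20. The others lay between -0.87 and -0.04. The fit was tested on simulated data only for the median error of its log2 fold changes, with no requirement on false or missed calls. Named genes are those called with or without the block, the 10 largest log2 fold changes each way among separated genes of at least 5 FPKM in a group, up to 4 members per described list by unadjusted p, and the literature targets of miR-143. Markers listed at 0, VIL1, SNAI1 and CTGF were named after their values were seen. Results for some genes are not reported here. Alternatives were a pseudocount of 0.1, no level filter, the 6 libraries alone, median centring, no variance trend, the block, and leaving out each library or replicate number.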

Additional observations from a re-analysis of the deposited data

How the results depend on the processing

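Without the block, limma called 2 genes as reported and with a pseudocount of 0.1, 1 without the level filter, 1 after median centring, 0 with the 6 libraries alone (131 genes at an unadjusted p under 0.05), 0 without the variance trend (204 genes at an unadjusted p under 0.05) and 0 to 0 when single libraries were left out (148 to 329 genes at an unadjusted p under 0.05). With the replicate number as a block, which the pairing check allows, it called 20, and likewise 20 with a pseudocount of 0.1, 19 after median centring, 16 without the variance trend, 0 without the level filter (1039 genes at an unadjusted p under 0.05), 96 with the 6 libraries alone (78 higher, 18 lower, all 20 among them) and 2 to 60 when a replicate number was left out. The causes of these shifts were not tested. No value changed its direction past the threshold. Of the values of the 20 called genes under the alternatives, 93 kept their side of the threshold and 75 fell short of it. Of the list medians, 438 moved by less than the spread between replicates and 6 by more. The FPKM tables hold no read totals, so counting error could not be given, and 3 libraries a group cannot pass an exact permutation test (smallest p = 0.1).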
